A study of Mus musculus with 6 samples.

Results

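The glycine cleavage system and the folate one-carbon enzymes around it were examined in tailbuds of E10.5 mouse embryos with prolonged expression of Nr6a1. The 10 genes, of 54134 in the count table, were Gldc, Amt, Gcsh and Dld of glycine cleavage, Phgdh of serine synthesis, Shmt1 and Shmt2, and the folate enzymes Mthfd1, Mthfd1l and Mthfd2. They were taken by symbol, and all 10 were among the 12733 genes that passed the filter on low counts. Libraries came from 4 wildtype embryos and from 2 Cdx2P:Nr6a1 embryos, with 1 library per embryo, all of strain C57BL/6. The Cdx2P:Nr6a1 embryos were transient transgenics made by pronuclear injection, in which Cdx2 regulatory elements drive the long isoform of Nr6a1, and each embryo is therefore its own integration event. The 4 wildtype embryos are labelled wildtype by genotype, and the paper does not say whether they came from injected embryos. The tailbud was taken as everything behind the most posterior somite, from embryos matched to within 1 somite.

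Glycine cleavage is a mitochondrial reaction carried out by a complex of separate proteins. Gldc (the P-protein) removes carbon dioxide from glycine, Gcsh (the lipoylated H-protein) carries the remaining aminomethyl group, Amt (the T-protein) passes its carbon to tetrahydrofolate, and Dld (the L-protein) reoxidises the lipoyl arm. The mitochondrial folate enzymes turn this carbon, and that released from serine by Shmt2, into formate, which Mthfd1 uses in the cytosol for purine and thymidylate synthesis. Loss of Gldc, Amt or Mthfd1l causes neural tube defects in mice, and loss of GLDC or AMT function causes nonketotic hyperglycinaemia in humans.

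Of the 10 genes, 1 differed between the genotypes. Gldc rose 1.32-fold in Cdx2P:Nr6a1 tailbuds (95% interval 1.19 to 1.46), and was the 1 member called at an adjusted p under 0.05 by the quasi-likelihood test of edgeR. The same test called 1.59% of all genes tested, 0.785% as higher and 0.809% as lower. The members were listed with earlier results of these data known, and Gldc is among the genes the study names, so its call is not independent evidence. The other 9 genes had fitted folds between 0.956 and 1.05, and the bounds of their 95% intervals lay between 0.887 and 1.21. None of the 9 was called, and DESeq2, limma voom and the likelihood ratio and exact tests of edgeR called 0 of them as well. By edgeR's quasi-likelihood test, 0 of the 9 and 1342 of all 12733 genes tested had an unadjusted p under 0.05. At that share, a count of 0 in a list this short does not set its genes apart.

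**Figure D1:**
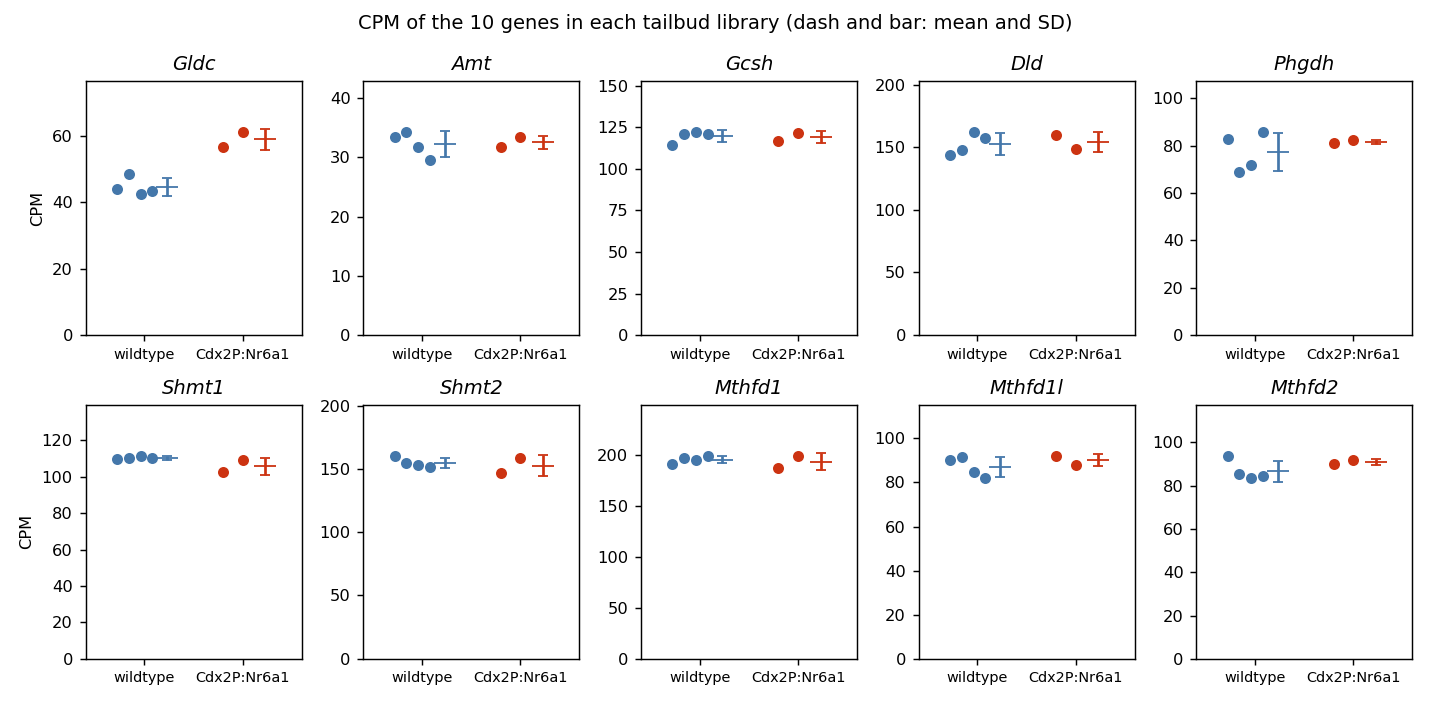
CPM (counts scaled to the total of the library) of the 10 genes, with 1 point per library, 4 wildtype in blue and 2 Cdx2P:Nr6a1 in red, and the mean and SD beside them. Each axis starts at 0, and for Gldc the red points, at 56.7 and 61.2 CPM, lie above all blue points.

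**Figure D2:**
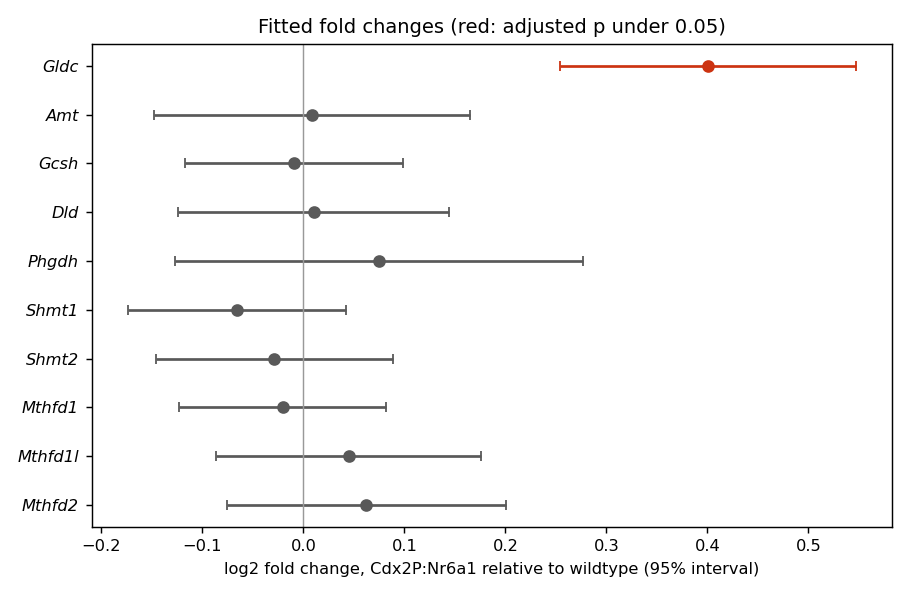
Fitted log2 fold change of each gene in Cdx2P:Nr6a1 relative to wildtype tailbuds, with its 95% interval from edgeR's quasi-likelihood fit. The interval of Gldc lies between 0.25 and 0.55 and those of the other 9 genes include 0.

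The totals of the 6 libraries lay between 44073460 and 67183802 counts, with a biological coefficient of variation of 9.40% between embryos. Nr6a1 itself had 3.91 to 6.89 CPM in the wildtype libraries and 23.4 and 33.8 in Cdx2P:Nr6a1 replicates 1 and 2, a log2 fold change of 2.41 with a standard error of 0.20 (edgeR, adjusted p = 0.00132). T (brachyury), a defining gene of the tailbud, lay between 886 and 1189 CPM in the 6 libraries. Y-linked genes were expressed in wildtype replicate 3 and Cdx2P:Nr6a1 replicate 2, so both groups held embryos with and without them.

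The sequences upstream of Gldc and Amt are shown because these subunits act in the same complex at similar levels, and Gldc rose whereas Amt was not called. Both are the 250 bases before the RefSeq start site on GRCm38.p6, written 5′ to 3′ along the gene, with the nuclear receptor half-site AGGTCA or its reverse complement TGACCT in capitals. Gldc is on the reverse strand and Amt on the forward strand.
Gldc, chr19:30175442-30175691: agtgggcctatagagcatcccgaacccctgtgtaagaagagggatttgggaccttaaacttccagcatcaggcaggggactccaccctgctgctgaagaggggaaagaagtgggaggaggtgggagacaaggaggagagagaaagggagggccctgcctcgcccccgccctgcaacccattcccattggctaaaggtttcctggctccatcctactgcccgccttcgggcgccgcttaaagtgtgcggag
Amt, chr9:108296655-108296904: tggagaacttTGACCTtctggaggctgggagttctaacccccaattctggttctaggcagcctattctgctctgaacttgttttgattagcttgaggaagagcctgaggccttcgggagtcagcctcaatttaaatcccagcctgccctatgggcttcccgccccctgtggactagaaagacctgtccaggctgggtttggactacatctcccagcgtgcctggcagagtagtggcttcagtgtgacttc
Nr6a1 binds direct repeats of this half-site without a spacer. All 10 genes had a promoter in the RefSeq table, 250 bases before to 50 bases after the start site, and both strands were searched. The half-site was found in the promoters of Amt and Mthfd1, 2 of 10, compared with 16.3% of 32851 promoters. The extended half-site TCAAGGTCA, which contains the half-site, was in 0 of the 10 and in 0.423% of all promoters. The direct repeat of the half-site without a spacer, which contains both shorter motifs, was in 0 of the 10 and in 2 promoters of the table. The letters TGATGNAA of the composite element bound by Atf4 with C/EBP proteins were in 0 of 10 and 3.97% of all, and the E-box CACGTG in 0 of 10 and 7.15%. These counts describe letters in a window and not binding.

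Gldc spans 30098449 to 30175418 of chromosome 19 (reverse strand) and was counted over 25 exon blocks with 3754 bases, on the mouse build GRCm38 (mm10). Its counts lay between 1948 and 4114 per library. In the wildtype libraries its CPM was 43.9, 48.4, 42.4 and 43.3, and in the Cdx2P:Nr6a1 libraries it was 56.7 and 61.2. The lowest Cdx2P:Nr6a1 value therefore exceeded the highest wildtype value, which was also true of 10.1% of all tested genes. The mean rose from 44.5 ± 2.68 (SD, n = 4) to 59.0 ± 3.19 (SD, n = 2) CPM. By edgeR's quasi-likelihood test the change was 0.40 ± 0.06 in log2 units (± standard error, here and for each gene that follows) with an adjusted p of 0.0198. The exact permutation test over embryos gave a two-sided p of 0.0667, the smallest that 2 libraries against 4 allow. Shmt1, which was not called, had the same permutation p. Of the 2 Cdx2P:Nr6a1 libraries, replicate 2 had more Nr6a1 and more Gldc. In wildtype, replicate 4 had the most Nr6a1, 6.89 CPM, and replicate 2 the most Gldc. A relation between the 2 genes was not tested.

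The direction of the Gldc change was the same under each of 17 alternatives, with log2 fold changes from 0.34 to 0.46. The call was lost without wildtype replicate 4 (adjusted p = 0.0579, edgeR) and without Cdx2P:Nr6a1 replicate 1 or 2 (0.0658 and 0.186), where the lone remaining library was assumed to vary like the wildtype libraries. Over all alternatives the adjusted p of Gldc lay between 6.64e-07 and 0.186 (edgeR, limma and DESeq2). Exons of Gldc overlap no other gene of the table. One or more of its annotated transcripts share stretches of up to 206 bases, at 95% identity or more, with transcripts of 76 other genes, and reads from such stretches may have been lost or misassigned.

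Amt, the aminomethyltransferase, spans 108296853 to 108302302 of chromosome 9. Its CPM was 33.5, 34.3, 31.7 and 29.5 in wildtype and 31.8 and 33.3 in Cdx2P:Nr6a1 tailbuds. The Cdx2P:Nr6a1 libraries lay inside the wildtype range, with a log2 fold change of 0.0085 ± 0.07 (adjusted p = 0.985, edgeR). The 95% interval of its fold, 0.902 to 1.12, lies below that of Gldc.

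Gcsh, the lipoyl carrier (chromosome 8, 116981810 to 116993537), had 114, 121, 122 and 121 CPM in wildtype libraries. In Cdx2P:Nr6a1 libraries it had 117 and 122 CPM, within the wildtype range. Its fold interval was 0.922 to 1.07 (adjusted p = 0.978, edgeR), and it also lies below that of Gldc. Dld, the dehydrogenase that glycine cleavage shares with the pyruvate, 2-oxoglutarate and branched-chain oxoacid complexes, spans 31331277 to 31351453 of chromosome 12. Its CPM was 144, 148, 162 and 157 in wildtype and 160 and 149 in Cdx2P:Nr6a1 tailbuds. The groups overlapped, and the 95% interval of the log2 fold change ran from -0.12 to 0.14 (adjusted p = 0.980, edgeR).

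The ratio of Gldc to its partners was compared within each library, on TPM (counts per exon length, scaled to a common total). Gldc to Amt was 0.852, 0.917, 0.868 and 0.954 in wildtype libraries and 1.16 and 1.19 in Cdx2P:Nr6a1 libraries. Gldc was thus the lower of the pair in every wildtype tailbud and the higher in both Cdx2P:Nr6a1 tailbuds. Gldc to Gcsh was between 0.146 and 0.169 in wildtype and 0.204 and 0.212 in Cdx2P:Nr6a1 libraries. Gldc to Dld was between 0.256 and 0.322 in wildtype and 0.348 and 0.404 in Cdx2P:Nr6a1 libraries. For all 3 ratios the groups did not overlap, and each had a two-sided exact permutation p of 0.0667, also when adjusted over the 3 ratios, the smallest p possible. Placed over Amt, Gcsh or Dld in the same way, 4.65%, 9.06% and 6.79% of the other genes tested had their Cdx2P:Nr6a1 values above every wildtype value.

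Gldc made up 7.75% to 8.98% of the summed TPM of the 4 glycine cleavage genes in wildtype libraries, and 10.4% and 11.1% in Cdx2P:Nr6a1 libraries. Gcsh held the most of this sum in every library, between 50.8% and 53.6%. The sum itself was 462 to 517 TPM in wildtype and 503 and 509 TPM in Cdx2P:Nr6a1 libraries, so the totals of the 2 groups overlapped.

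Phgdh, the first enzyme of serine synthesis from a glycolytic intermediate, spans 98313170 to 98339990 of chromosome 3. Its CPM was 82.6, 69.0, 71.6 and 85.8 in wildtype and 81.0 and 82.3 in Cdx2P:Nr6a1 tailbuds. It was the member that varied most between wildtype embryos, with a coefficient of variation of 10.6%, where the median of all genes tested was 5.85%. Both Cdx2P:Nr6a1 libraries lay inside this range, with a log2 fold change of 0.07 ± 0.09 (adjusted p = 0.889, edgeR). Its fold interval, 0.916 to 1.21, was the 1 interval of the 9 other genes that overlapped that of Gldc. Phgdh has 7 near-identical gene copies that align over more than 1000 bases at 95.3% to 98.7% identity, and these held 309 counts over the 6 libraries, 1.24% of the 24878 of Phgdh.

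Shmt1 and Shmt2 split serine into glycine and a one-carbon unit, in the cytosol and in mitochondria respectively. Shmt1 (chromosome 11, 60788104 to 60811718) had the narrowest spread of the members, with 110, 110, 112 and 110 CPM in wildtype. It had 102 and 109 CPM in Cdx2P:Nr6a1 libraries. Both were below all wildtype libraries, as for 8.48% of the genes tested, but the second by less than 1 CPM. Its log2 fold change was -0.07 ± 0.05 (adjusted p = 0.773, edgeR). Shmt1 shares 184 exon bases, 4.74% of its length, with Smcr8 on the opposite strand. Shmt2 (chromosome 10, 127517123 to 127522444) had 160, 154, 153 and 152 CPM in wildtype and 147 and 158 in Cdx2P:Nr6a1 libraries, a log2 fold change of -0.03 ± 0.05 (adjusted p = 0.933, edgeR). Cdx2P:Nr6a1 replicate 1 was the lowest of the 6 libraries for both genes. The TPM of Shmt2 was 1.71 to 1.83 times that of Shmt1 in wildtype and 1.79 and 1.81 times in Cdx2P:Nr6a1 libraries.

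Mthfd2 and Mthfd1l carry the mitochondrial one-carbon unit to formate, and Mthfd1 is the cytosolic enzyme that takes formate up again. Mthfd2 (chromosome 6, 83305691 to 83325908) had 93.9, 85.2, 83.3 and 84.3 CPM in wildtype and 90.0 and 91.7 in Cdx2P:Nr6a1 libraries. Wildtype replicate 1 was the highest library and the groups overlapped, with a log2 fold change of 0.06 ± 0.06 (adjusted p = 0.860, edgeR). Mthfd1l (chromosome 10, 3973118 to 4167081) had 90.0, 91.3, 84.8 and 81.8 CPM in wildtype libraries. Its 92.2 and 88.1 CPM in Cdx2P:Nr6a1 libraries gave a fold interval of 0.942 to 1.13 (adjusted p = 0.899, edgeR). Mthfd1 (chromosome 12, 76255298 to 76319803) had 191, 197, 196 and 199 CPM in wildtype and 187 and 199 in Cdx2P:Nr6a1 tailbuds. Its fold interval was 0.918 to 1.06 (adjusted p = 0.953, edgeR), and the Cdx2P:Nr6a1 libraries lay at either end of the values. The 3 folate genes thus gave no call in either direction.

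**Figure D3:**
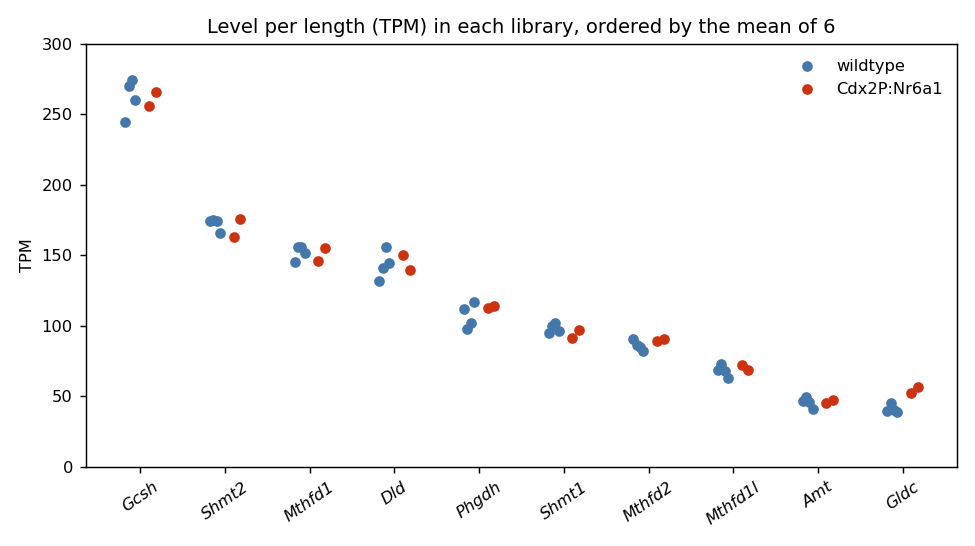
TPM of the 10 genes in each library, with the genes ordered by their mean over the 6 libraries and the axis starting at 0. Gcsh is the highest, at a mean of 262 TPM, and Gldc and Amt the lowest, at 45.5 and 45.9 TPM.

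Per exon length, the genes spanned a 5.76-fold range of mean TPM over the 6 libraries. Gcsh was first with 262 ± 10.9 TPM (SD, n = 6), followed by Shmt2 with 171 ± 5.51. Mthfd1 (152 ± 5.07) and Dld (144 ± 8.62) came next and did not separate, with Mthfd1 above Dld in 4 of 6 libraries. Phgdh (109 ± 7.60) and Shmt1 (96.9 ± 3.76) also overlapped, with Phgdh above Shmt1 in 5 of 6 libraries. They were followed by Mthfd2 (87.3 ± 3.59) and Mthfd1l (68.7 ± 3.54), whose ranges did not overlap. Amt (45.9 ± 2.82) and Gldc (45.5 ± 7.34) were the lowest and overlapped. The RNA of Gldc and Amt was therefore at lower levels per exon length than that of Gcsh and Dld in all 6 libraries. All 10 genes ranked above the median of the genes tested, between percentile 65.4 and 95.7.

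The median log2 fold change of the 10 genes was 0.0093, with 6 positive and 4 negative values, and over all genes tested it was -0.00071. Without Gldc the median of the 9 was 0.0085.

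Among 89 further genes of linked pathways, 76 passed the filter, and 1 was called, Gatm, where 1.59% of all genes tested were called. A single call is about what this share gives, and it is described here as a gene and not as a result about the pathways. Gatm makes the creatine precursor guanidinoacetate from arginine and glycine. Its CPM was 2.12, 3.03, 3.18 and 4.40 in wildtype and 6.56 and 13.9 in Cdx2P:Nr6a1 libraries, a log2 fold change of 1.69 ± 0.30 (adjusted p = 0.0299, edgeR). The groups did not overlap, and the value of Cdx2P:Nr6a1 replicate 2 was the farther from wildtype. Gatm was not called without wildtype replicate 1, 2 or 3 (adjusted p from 0.0547 to 0.0603, edgeR) or without Cdx2P:Nr6a1 replicate 2, where the log2 fold change was 1.04 (adjusted p = 0.266, edgeR). It was also not called with robust estimation (adjusted p = 0.116) or with Y-linked expression as a covariate (adjusted p = 0.0681, edgeR). Over all alternatives its adjusted p lay between 7.45e-29 and 0.266 (edgeR, limma and DESeq2). The next enzyme, Gamt, which methylates guanidinoacetate to creatine, was at 0.21 on the log2 scale and was not called (adjusted p = 0.595, edgeR), with both Cdx2P:Nr6a1 values above wildtype.

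**Figure D4:**
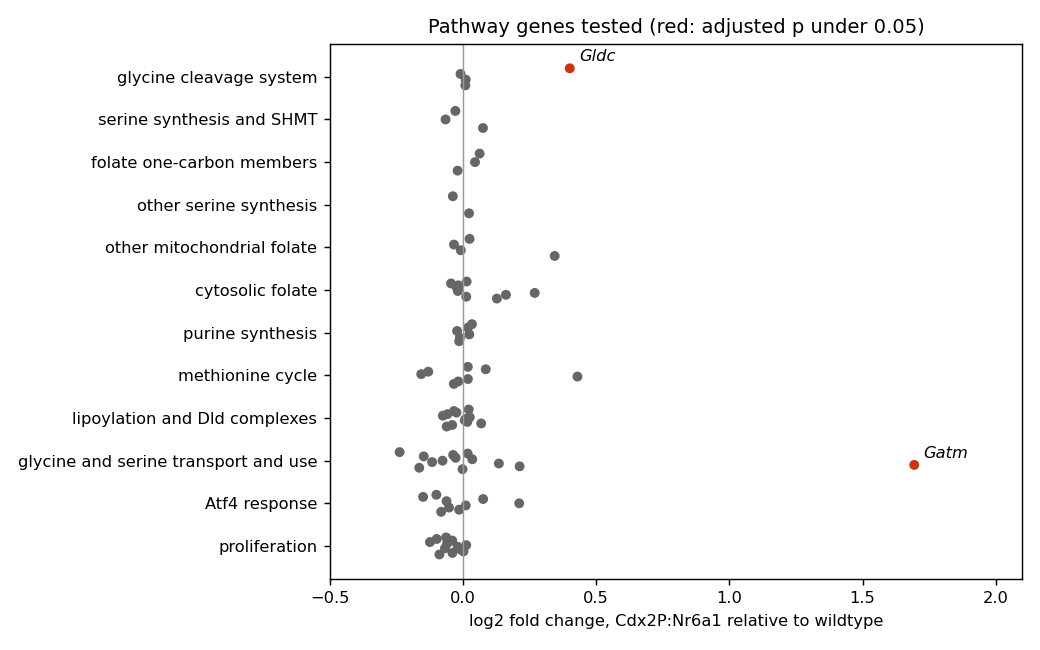
Log2 fold change of each tested gene of the 10 members and of the 9 linked pathway lists, 1 point per gene. The called genes, Gldc at 0.40 and Gatm at 1.69, are red and named, and the other points lie between -0.24 and 0.43.

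In the glycine and serine transport and use list, Gatm was the 1 call of 13 genes tested, 2 had an unadjusted p under 0.05 (edgeR), and the median log2 fold change was -0.03 with 5 positive and 8 negative values. The second gene was Srr, the serine racemase, with 7.34 to 8.45 CPM in wildtype and 6.78 and 6.83 in Cdx2P:Nr6a1 libraries. Its log2 fold change of -0.24 was opposite to that of Gatm and was not called (adjusted p = 0.419, edgeR). Slc6a9, the glycine transporter GlyT1, was at -0.15 (adjusted p = 0.889, edgeR) with groups that overlapped. The other serine synthesis enzymes, Psat1 and Psph, were at 0.02 and -0.04, with 0 of 2 called and 0 unadjusted p under 0.05 (edgeR). The other mitochondrial folate genes gave 0 calls of 4 and 0 at an unadjusted p under 0.05 (edgeR). The largest value there was 0.34 for Aldh1l2, a mitochondrial formyltetrahydrofolate dehydrogenase, which was close to the filter at 1.65 to 2.99 CPM. Of the cytosolic folate genes 10 of 14 were tested and 0 called, with 1 at an unadjusted p under 0.05 (edgeR), Ggh, a hydrolase of folate polyglutamates, at 0.27. The folate receptor genes Folr1 and Folr2 did not pass the filter.

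The 6 purine synthesis genes, for which formyl groups from folate are a substrate, had log2 fold changes between -0.02 and 0.03, with 0 calls and 0 unadjusted p under 0.05 (edgeR). Of the methionine cycle, 8 of 11 genes were tested with 0 calls and 0 unadjusted p under 0.05 (edgeR), and the largest value was 0.43 for Bhmt2, at 1.97 to 3.79 CPM. The 12 genes for lipoylation and for the other complexes that use Dld ranged from -0.08 to 0.07, again with 0 calls and 0 unadjusted p under 0.05 (edgeR), and the largest value was that of Lipt2, a lipoyl transferase. Of 13 genes of the Atf4 response, a regulator of serine and one-carbon genes, 9 were tested with 0 calls and 0 unadjusted p under 0.05 (edgeR). Atf4 itself was at -0.01 and Sesn2, with the largest value, at 0.21. The 12 proliferation genes had a median of -0.05, with 10 of 12 negative and 0 calls or unadjusted p under 0.05 (edgeR), and Mki67 had the largest value, -0.12. DESeq2, limma voom and the likelihood ratio and exact tests of edgeR also called 1 gene over all these lists, which was Gatm.

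The genes whose profile over the 6 libraries was most like that of Gldc were Ociad2, Asphd2, Slain1, Enc1 and Gpx3. Likeness was the root mean square difference in log2 CPM relative to the wildtype mean, and it was 0.05 to 0.06 for these 5 genes. Because both Cdx2P:Nr6a1 libraries entered this measure, the choice itself fixed the direction and size of their fold changes, which are given as a description. Of the 5, Enc1 was called by edgeR's quasi-likelihood test, at 0.46 ± 0.07 (adjusted p = 0.0162). The other 4 were between 0.32 and 0.40 and were not called (adjusted p from 0.0722 to 0.167, edgeR). Enc1 had 120 to 144 CPM in wildtype libraries and 174 and 181 in Cdx2P:Nr6a1 libraries.

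Tailbuds hold several cell types, and in bulk tissue fewer cells of a type and less RNA per cell cannot be told apart. Of 8 neural tube markers, 4 passed the filter and 3 were called higher, compared with 0.785% of all genes tested. These were Hes3 (log2 fold change 3.13), Sox1 (1.77) and Sox3 (1.26), with adjusted p from 0.00714 to 0.0116 (edgeR). Sox1 was at 0.895 to 1.42 CPM in wildtype and passed the filter only through its 2.95 and 5.09 CPM in Cdx2P:Nr6a1 libraries. Its part in this count therefore depends on the filter. Olig2 had 0 counts. Sox2, the most abundant of the list, was at 0.17 and was not called (adjusted p = 0.653, edgeR), with 24.7 to 30.8 CPM in wildtype and 28.9 and 34.8 in Cdx2P:Nr6a1 libraries, and Pax6, Nkx6-1 and Irx3 did not pass the filter. The summed CPM of the list was 31.3 to 40.9 in wildtype and 52.2 and 78.7 in Cdx2P:Nr6a1 libraries. Of 6 neuromesodermal progenitor markers, 1 was called higher, Cdx2 (0.35, adjusted p = 0.0340, edgeR), whose regulatory elements also drive the transgene. With Nkx1-2 and Cdx4, 3 of the 6 had an unadjusted p under 0.05 (edgeR), compared with 1342 of all 12733 genes tested. For Cdx2, Nkx1-2 and Cdx4 the groups did not overlap. The paper names Nkx1-2 and Gldc among genes enriched in these progenitors. Nkx1-2 was at 0.35 and Cdx4 at 0.34 without a call (adjusted p = 0.0810 and 0.0756, edgeR). Fgf8 was at 0.25, T at -0.18 and Wnt3a at -0.10, also without a call (adjusted p = 0.544, 0.564 and 0.835, edgeR). The summed CPM of the 6 genes was 1894 to 2208 in wildtype and 2252 and 1990 in Cdx2P:Nr6a1 libraries. Their part in the Gldc value was not tested.

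Of the 8 presomitic mesoderm markers, 6 were tested and 0 called. Of the 6, 3 had an unadjusted p under 0.05 (edgeR), compared with 1342 of all 12733 genes tested. They were Msgn1 (log2 fold change -0.43), Tbx6 (-0.26) and Dll3 (-0.14). The other 3 were positive, Lfng at 0.34, Dll1 at 0.04 and Hes7 at 0.01, with groups that overlapped. The summed CPM of the list overlapped, at 1113 to 1415 in wildtype and 1240 and 1034 in Cdx2P:Nr6a1 libraries. The gut endoderm, erythroid and macrophage lists gave 0 calls among 6, 6 and 5 genes tested, with 1, 0 and 1 genes at an unadjusted p under 0.05 (edgeR). Their summed CPM in Cdx2P:Nr6a1 libraries was 456 and 385, 9967 and 13740, and 14.5 and 47.0, compared with 305 to 404, 8232 to 19960, and 10.9 to 25.2 in wildtype libraries. Of the macrophage sum of 47.0 in Cdx2P:Nr6a1 replicate 2, Lyz2 held 28.7 CPM, compared with 4.99 in replicate 1 and 1.38 to 5.19 in wildtype libraries. It was not called (adjusted p = 0.0836, edgeR). Ptprc, Csf1r and C1qb were at -0.41, -0.42 and -0.15, and C1qa was at 0.20. Liver is a tissue rich in glycine cleavage. Of 6 genes listed as its markers 3 were tested, Afp, Apoa1 and Ttr, with 0 calls and 0 unadjusted p under 0.05 (edgeR). The summed CPM of the list, 5.47 and 30.3, lay within the wildtype range of 0.250 to 87.7. Alb had 0 or 1 counts in each library, so the sum is not taken as a sign of liver tissue.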

How the data were processed

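The authors sequenced stranded poly(A) mRNA libraries of 6 tailbuds, aligned the reads with STAR (build mm10, per the submitters' processing notes) and deposited raw counts per gene, neither normalized nor filtered. The counting program and its use of strand are not given in the sources used here. Exon coordinates in the table matched GENCODE M21 on GRCm38 for 99.5% of exons. A second deposited table, of the authors' called genes with fold changes and p-values, was not used here. The table held 0 columns of other samples. Members and gene lists were chosen with earlier results of these data known.

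The filter of the study's methods was applied, which retains genes with more than 10 counts and more than 2 CPM in 2 or more libraries. Genotypes were compared in R 4.3.3 with edgeR 4.0.16 (TMM normalization, quasi-likelihood test, no covariates), with calls made at an adjusted p under 0.05 (Benjamini-Hochberg, over all genes tested). Standard errors are the fold change divided by the square root of F. CPM uses column totals, as the rule for the members sets, and TPM the exon lengths of the table. Exact permutation tests were two-sided, over 15 arrangements. Replicates were separate embryos, and no pair of libraries agreed within sampling noise. In simulated counts of this comparison the test called 61 of 100 genes changed by 0.5 on the log2 scale, 96 of 100 changed by 1, and 17 of 12457 not changed. Alternatives used limma 3.58.1 and DESeq2 1.42.0, and tables were made in Python 3.11.15. Near-identical transcripts were sought with blastn in GENCODE M21. Named genes are the members, Nr6a1, the called gene and the largest change of each pathway list, marker genes and the 5 genes most like Gldc. Genes named beyond this rule (Gamt, Slc6a9, Srr, Psat1, Folr1, Folr2 and Atf4) were chosen after their values were seen.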

Additional observations from a re-analysis of the deposited data

How the results depend on the processing

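The counts of genes called, the median of the members and the fold changes of the 10 members, Gatm and Nr6a1 were recomputed under 17 alternatives. These were other tests (DESeq2, limma voom, and edgeR's likelihood ratio, exact and robust tests), scaling by RLE or by totals alone, filterByExpr or no filter, a replicate block, a Y-linked covariate, and each of the 6 libraries left out. For Gatm and Nr6a1 they were added after seeing the data. The ratios, TPM order, shares, marker genes and genes most like Gldc were not recomputed. Among all genes, 203 were called, compared with 401 by the likelihood ratio test, 391 by the exact test, 477 by DESeq2 and 876 without a filter, and 61 to 175 with 1 library left out. Of the 10 members 1 was called throughout, except that 0 to 1 were called with 1 library left out. Of the pathway genes 1 was called, but 0 with robust estimation or the Y-linked covariate and 0 to 1 with 1 library left out. The median log2 fold change of the members lay between -0.00096 and 0.030 with 1 library left out, against 0.0093. The direction of several genes without a call was not held: Amt was at -0.0016 with filterByExpr, and with 1 library left out Amt lay between -0.039 and 0.048, Gcsh between -0.044 and 0.025, Dld between -0.038 and 0.058, Shmt2 between -0.091 and 0.031 and Mthfd1 between -0.071 and 0.029. The cause was not tested.

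Replicate numbers are shared between the genotypes, and the sources used here do not say whether they mark a common litter or day. The deviations of same-numbered libraries from their group means correlated at 0.205 for number 1 and -0.151 for number 2 over 12733 genes. The highest correlation, 0.314, was between wildtype replicate 3 and Cdx2P:Nr6a1 replicate 2. With 2 Cdx2P:Nr6a1 libraries, their deviations from their mean are mirror images, so these values can neither show nor exclude pairing. In the fit with the replicate block, 442 genes were called in all, 1 member (Gldc, log2 fold change 0.35) and 1 pathway gene, with a median of 0.00092 over the members, and Amt was at -0.065, Gcsh at 0.012 and Mthfd1l at -0.016.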
